A study of Mus musculus with 4 samples.

Results

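The enzymes described here are the core of bile acid synthesis and conjugation, and they were taken by gene symbol from a table of 24493 genes: Cyp7a1, Cyp8b1, Cyp27a1, Cyp7b1, Hsd3b7, Akr1d1, Amacr, Acox2, Slc27a5 and Baat. All 10 symbols had a row in the table. RNA sequencing compared 2 states of untreated cultured mouse liver cells of C57BL/6 background. Hep_3D (n = 2) held hepatocytes grown in 3D culture, and Bil_2D (n = 2) held biliary cells derived from hepatocytes and grown in 2D culture. Each state had 1 library from clone 15C7 (replicate 1) and 1 from clone 19H5 (replicate 2), so each group rests on 2 clones. Pairs of values are given in that order, clone 15C7 first. Culture format changed together with cell state in every library, and their parts in a difference cannot be told apart. Nothing in the labels says from how many animals the clones came, so each p-value reflects no more than how far these libraries spread, which may be technical.

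Bile acids are made from cholesterol in hepatocytes, and this set of enzymes is a defining function of that cell type. In the classical route Cyp7a1 hydroxylates cholesterol first, and in the alternative route Cyp27a1 and then Cyp7b1 act on the side chain and the ring. Both routes share the ring enzymes Hsd3b7 and Akr1d1, while Cyp8b1 directs part of the flow to cholic acid. The side chain is shortened in peroxisomes with the help of Amacr and Acox2. Slc27a5 joins bile acids to coenzyme A, and Baat transfers taurine or glycine to the activated bile acid. Bile duct cells modify and take up bile acids and are not known for making them.

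Values are TPM, the length-corrected share of each gene's transcripts among all transcripts of a library, so levels can be compared between genes. TPM keeps no sequencing depth, so the counting error of each value was unknown, which matters most for values under 1 TPM. Fold changes are Hep_3D minus Bil_2D on log2(TPM + 1), which understates changes of low genes, and rose and fell refer to limma's adjusted p under 0.05 on that scale. The 50 most abundant genes took 46.6% and 48.4% of TPM in the Hep_3D libraries and 22.4% and 24.8% in Bil_2D. Because such shares lower all other genes, a size-factor scale is given beside the first, in which each library's TPM was divided by a median-of-ratios factor. Over the 12336 genes tested, log2 fold changes had a median of -0.73 in TPM and of -0.02 after size factors. Of hepatocyte markers, 11 of 12 had values and 10 rose (Hnf4a and Cebpa, both also regulators of the pathway, among them), with summed levels of 65451 to 69346 TPM in Hep_3D and 584 to 2416 in Bil_2D. Of 12 biliary markers, 9 were tested, 4 fell (Krt19 among them) and 1, Spp1, rose (adjusted p = 0.0359), a call lost with the replicate block (0.0611). Of all genes tested, 6.8% rose and 51.9% fell on this scale, so the falls of biliary markers were no more frequent than those of other genes. Krt7 and Tspan8, which also fell, lost their calls on the size-factor scale (adjusted p = 0.117 and 0.0667 in limma). Cftr and Sctr were under 0.1 TPM in every library, and Epcam was between 0.439 and 2.59 TPM. All 9 endothelial markers were under 1 TPM in every library, and of 10 macrophage and leukocyte markers 6 were. The latter summed to 136 and 227 TPM in the Bil_2D pair and to 495 and 487 in the Hep_3D pair, of which Cd14 held 129 and 213 TPM, and 491 and 483 TPM. Ptprc was at most 0.0598 TPM and Adgre1 at most 0.0277. Fibroblast and stellate markers summed to 180.4 TPM in Hep_3D replicate 1, of which Dcn held 178 TPM (adjusted p = 0.163 between states, and 0.0479 with the replicate block), and to 1.37 to 5.08 TPM in the other 3 libraries. Of these 11 markers, 9 were under 1 TPM in every library. Red blood cell markers summed to 2.82 to 6.3 TPM.

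Hepatocyte cultures held a higher summed level of the 10 enzymes and a different make-up of it. The sum was 114 and 119 TPM in the Bil_2D pair, and 369 and 485 TPM in the Hep_3D pair. The groups did not overlap. In bulk libraries, fewer cells with an enzyme and less of its RNA per cell cannot be told apart. The ratio of the means was 3.66 (3.22 in clone 15C7 and 4.09 in clone 19H5), or 6.47 on the size-factor scale. An exact two-sided permutation test gave p = 0.33, the smallest that 2 against 2 libraries can give. Hsd3b7 alone held 57.2% and 66% of the sum in Bil_2D replicates 1 and 2, against 8.08% and 10.1% in Hep_3D. Slc27a5 held 42.5% and 41.7% of the sum in the Hep_3D pair and 0.17% and 0.0898% of it in the Bil_2D pair. Acox2 was the second largest share in Hep_3D (17.4% and 22.8%), and Cyp27a1 the third (12.2% and 12%).

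**Figure D1:**
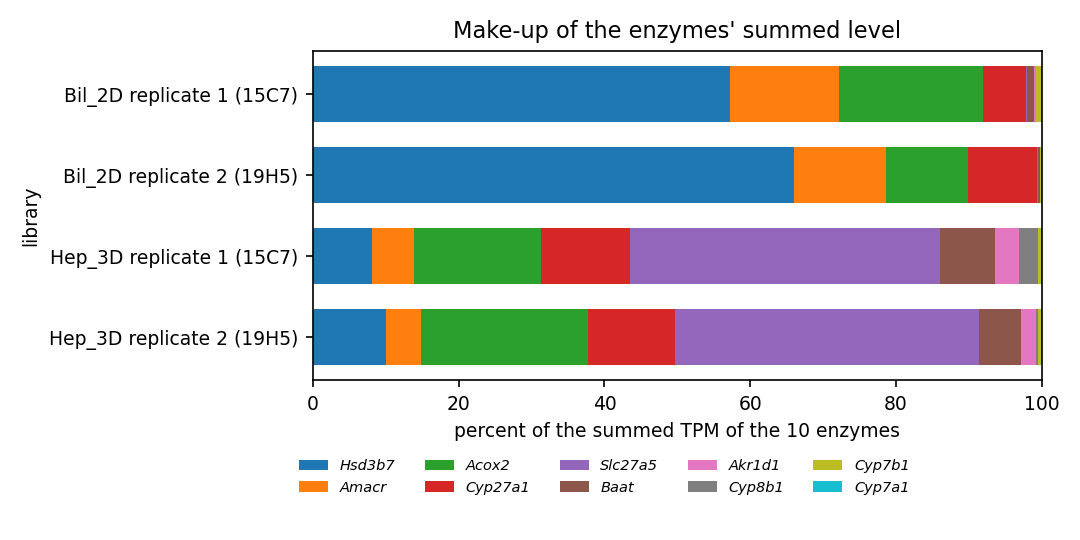
Share of the 10 enzymes' summed TPM held by each enzyme, as percent (horizontal axis), in each of the 4 libraries (rows). Hsd3b7 fills over 57% of both Bil_2D bars and about 8% to 10% of both Hep_3D bars, where Slc27a5 fills about 42%.

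In both Hep_3D libraries the level was above both Bil_2D libraries for 9 of the 10 enzymes, on the TPM scale and on the size-factor scale. Among all genes tested this held for 11.1% and 33.6% on these scales. Hsd3b7 was the exception, with both Hep_3D libraries below both Bil_2D libraries in TPM, as for 71.9% of all genes tested, and with overlapping groups on the size-factor scale. Of the 9 enzymes that passed the filter (1 TPM or more in 2 or more libraries), 5 rose (Slc27a5, Baat, Akr1d1, Cyp27a1 and Acox2) and 0 fell. Of all genes, 6.8% rose and 51.9% fell. Slc27a5, Baat, Akr1d1, Cyp8b1 and Cyp7b1 passed that filter only through their Hep_3D libraries, so a fall was hardly open to them. The counts and the median of the enzymes carry this limit, and the shares over all genes are not matched for it. On the size-factor scale 7 rose, with Amacr and Cyp7b1 added, while 0 fell, against 11.9% and 9.54% of all genes. The median log2 fold change of the 9 was 2.34, or 3.00 on the size-factor scale. Without an adjusted p under 0.05 on the TPM scale were Cyp8b1, Cyp7b1, Hsd3b7 and Amacr, with adjusted p from 0.0516 to 0.0624. With clone number as a replicate block, 6 rose, Cyp8b1 among them (adjusted p = 0.0419 in limma), and 1, Hsd3b7, fell (0.02), against 7.93% and 58.1% of all genes. Slc27a5, Baat, Akr1d1 and Cyp27a1 passed on the TPM scale with any 1 library left out.

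**Figure D2:**
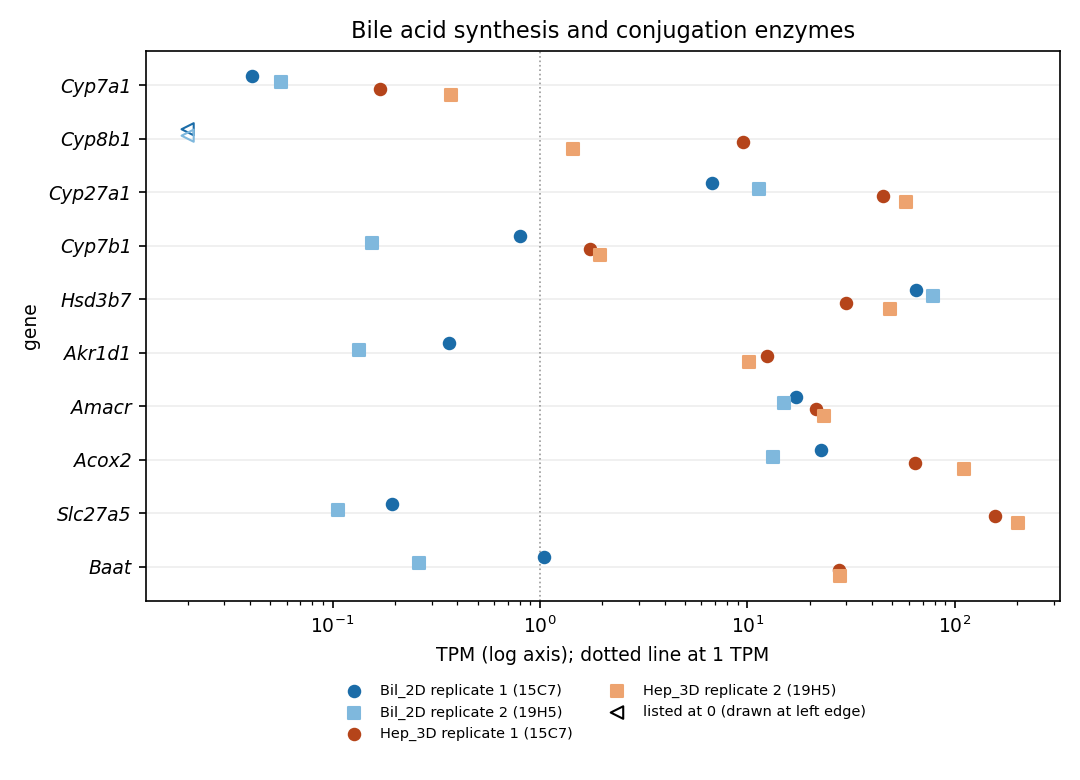
TPM (log axis) of each enzyme (rows) in the 4 libraries; circles are clone 15C7, squares clone 19H5, blue Bil_2D and orange Hep_3D, and open triangles mark values listed at 0. Slc27a5, Baat and Akr1d1 lie at or under about 1 TPM in Bil_2D and above 10 TPM in Hep_3D, whereas Hsd3b7 lies further right in Bil_2D.

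The entry enzyme of the classical route was under 1 TPM in every library. Cyp7a1, which catalyses the rate-limiting step (chromosome 4, 6265612 to 6275633, minus strand, GRCm38), measured 0.0411 and 0.0565 TPM in the Bil_2D pair and 0.169 and 0.371 in the Hep_3D pair. Both Hep_3D values were above both Bil_2D values, yet all 4 were under the filter and no test was made. Counted from the most abundant gene, Cyp7a1 stood at rank 14034 and 12523 of 24493 in Hep_3D replicates 1 and 2.

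The entry enzyme of the alternative route was far more abundant than Cyp7a1 in each library. Cyp27a1, a mitochondrial sterol side-chain hydroxylase (chromosome 1, 74713574 to 74737892, plus strand), measured 6.77 and 11.3 TPM in the Bil_2D pair and 45 and 58.1 in the Hep_3D pair. Both Hep_3D libraries were well above both Bil_2D libraries, and clone 19H5 was above 15C7 in each state. Cyp27a1 rose, with a log2 fold change of 2.41 (SE 0.29, adjusted p = 0.00685 in limma), or 3.17 on the size-factor scale (adjusted p = 0.00981, and 0.051 to 0.0625 there with a library left out). Macrophages also make this enzyme. Of the 10 macrophage and leukocyte markers, Cd14 rose as Cyp27a1 did (log2 fold change 1.55, adjusted p = 0.0124), Cd68 fell (-1.96, adjusted p = 0.0322), and Csf1r lay between 0.984 and 1.69 TPM without passing. Ptprc and Adgre1 were near 0 in all 4 libraries. The part of such cells in the value of Cyp27a1 was not tested. The ratio of Cyp27a1 to Cyp7a1 TPM was 157 to 266 across the 4 libraries.

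Cyp7b1, which hydroxylates the ring of the oxysterols that Cyp27a1 forms (chromosome 3, 18071950 to 18243338, minus strand), stayed low. It measured 0.802 and 0.154 TPM in the Bil_2D pair and 1.74 and 1.94 in the Hep_3D pair. The groups did not overlap, and the Bil_2D libraries differed from each other by more than the Hep_3D libraries did. Its log2 fold change of 0.98 did not pass (SE 0.31, adjusted p = 0.0516), and it passed on the size-factor scale (1.37, adjusted p = 0.0388), where the call was lost with any 1 library left out (0.106 to 0.169). Cyp27a1 exceeded Cyp7b1 in TPM by 25.9 and 30 times in Hep_3D and by 8.44 and 73.3 times in Bil_2D.

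The ring enzymes parted into one that was high in biliary cells and others that were nearly absent there. Hsd3b7, the dehydrogenase that oxidises the ring in both routes (chromosome 7, 127800604 to 127803802, plus strand), measured 65.4 and 78.4 TPM in the Bil_2D pair and 29.8 and 48.9 in the Hep_3D pair. It was the most abundant of the 10 in both Bil_2D libraries, at rank 2369 and 1908 of all genes. Its log2 fold change was -0.89 (SE 0.28, adjusted p = 0.0516 in limma), and -0.09 on the size-factor scale (adjusted p = 0.86). On that scale it was lower in Hep_3D within clone 15C7 (-0.30) and higher within clone 19H5 (0.12). With the replicate block the fall passed on the TPM scale (adjusted p = 0.02) and not on the size-factor scale (0.698), and it passed without Hep_3D replicate 2 (0.0394). In GENCODE, Hsd3b7 shares 1717 exon bases with the same-strand gene Gm49388 and 1729 with the opposite-strand transcript 9430064I24Rik. Strand use in the counting is not given in the sources used here, so reads of these 3 genes cannot be told apart and the value of Hsd3b7 is uncertain to that degree.

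Akr1d1, the reductase that gives the sterol ring its bent form (chromosome 6, 37530173 to 37568815, plus strand), measured 0.363 and 0.135 TPM in the Bil_2D pair and 12.4 and 10.2 in the Hep_3D pair. Both Bil_2D values were under 1 TPM and both Hep_3D values above 10. It rose, with a log2 fold change of 3.30 (SE 0.23, adjusted p = 0.00427), and the fold of the mean TPM was 45.3. The TPM of Hsd3b7, which acts just before it, was 180 and 582 times that of Akr1d1 in Bil_2D replicates 1 and 2 and 2.41 and 4.81 times in Hep_3D.

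Cyp8b1, the hydroxylase that sets the share of cholic acid (chromosome 9, 121914356 to 121916305, minus strand), was listed at 0 in both Bil_2D libraries. In Hep_3D replicates 1 and 2 it had 9.55 and 1.44 TPM, so the groups did not overlap and the clones differed widely within the hepatocyte state. Hep_3D replicate 1 was also the library with 178 TPM of Dcn, while 9 of the 11 fibroblast and stellate markers were under 1 TPM in every library. The part of such cells in the value of Cyp8b1 was not tested. Its log2 fold change of 2.34 (SE 0.75) had an adjusted p of 0.0538 in limma, and 0.0802 on the size-factor scale (2.65). It passed with the replicate block (0.0419), without Hep_3D replicate 1 (0.0447, where the fold change was 1.29) and without Hep_3D replicate 2 (0.033, where it was 3.40), with pseudocount 0.1 (0.0183), and not without either Bil_2D library (0.167 and 0.16). After size factors it passed without Hep_3D replicate 2 (0.0288), and not with the replicate block (0.0642) or without Hep_3D replicate 1 (0.0585).

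Promoter sequence was in hand for 5 of the 10 enzymes, from RefSeq on GRCm38.p6. It is shown for the 4 whose bases before the start lie outside the annotated gene. The bases of Acox2 lie within its annotated gene and are not shown. The 4 shown are 2 nearly absent in Bil_2D (Cyp8b1 and Akr1d1), 1 that rose from a measurable level (Cyp27a1) and 1 that was high in both states (Hsd3b7). Each run reads 5′ to 3′ on the gene's strand from 250 bases before the start to the base before it (for Hsd3b7, to 6 bases before it). Capitals mark matches, on either strand, to 3 motifs chosen after the sequences were seen: CAAAGTCCA (a core of HNF4 sites), CAAGGNCA (LRH-1, the product of Nr5a2) and TTNNGCAA (C/EBP). The regions are chr9:121916306-121916555 on the minus strand, and chr6:37529923-37530172, chr1:74713285-74713534 and chr7:127800359-127800603 on the plus strand.
Cyp8b1: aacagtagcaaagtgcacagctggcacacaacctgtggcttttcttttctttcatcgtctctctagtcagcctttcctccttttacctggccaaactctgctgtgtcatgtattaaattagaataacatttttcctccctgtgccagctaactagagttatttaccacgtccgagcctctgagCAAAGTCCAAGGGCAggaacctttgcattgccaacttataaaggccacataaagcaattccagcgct
Akr1d1: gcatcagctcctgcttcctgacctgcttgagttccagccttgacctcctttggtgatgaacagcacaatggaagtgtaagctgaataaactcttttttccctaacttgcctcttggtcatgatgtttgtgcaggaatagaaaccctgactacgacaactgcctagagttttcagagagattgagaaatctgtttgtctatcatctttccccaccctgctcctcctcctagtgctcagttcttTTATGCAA
Cyp27a1: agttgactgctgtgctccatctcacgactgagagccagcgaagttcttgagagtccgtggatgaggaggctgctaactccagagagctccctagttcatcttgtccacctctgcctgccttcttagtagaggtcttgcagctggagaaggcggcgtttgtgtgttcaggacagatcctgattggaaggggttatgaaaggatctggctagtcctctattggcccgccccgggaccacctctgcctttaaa
Hsd3b7: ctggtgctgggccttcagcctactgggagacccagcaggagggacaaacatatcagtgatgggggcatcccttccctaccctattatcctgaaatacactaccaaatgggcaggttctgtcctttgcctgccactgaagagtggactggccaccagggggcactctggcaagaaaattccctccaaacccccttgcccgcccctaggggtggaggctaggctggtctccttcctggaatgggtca

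The Cyp8b1 run holds the HNF4 core at -67 to -59 and the LRH-1 motif at -60 to -53, overlapping by 2 bases. Among 32851 RefSeq promoter records of the same 250-base length, 0.384% hold the HNF4 core and 5.53% the LRH-1 motif. The Akr1d1 run holds the C/EBP motif at -8 to -1, a motif in 9.56% of the records. A record of Acox2, not shown, also holds the C/EBP motif, at -146 to -139. The Cyp27a1 and Hsd3b7 runs hold none of the 3. These are matches of letters only, and binding was not tested. The motifs were chosen after the runs were seen, so the shares of records do not measure how unusual a match is. Of the factors named, Hnf4a (named after its values were seen) measured 137 and 84.3 TPM in the Bil_2D pair and 244 and 237 in the Hep_3D pair. It rose (log2 fold change 1.15, adjusted p = 0.0233), a call lost without Bil_2D replicate 2 (0.0523), Hep_3D replicate 1 (0.0973) or Hep_3D replicate 2 (0.0969). Nr5a2 measured 0.557 and 0.458 TPM in the Bil_2D pair and 22.1 and 9.75 in the Hep_3D pair. Nr5a2 rose (log2 fold change 3.39, adjusted p = 0.00707). Cebpa, a C/EBP gene of liver, measured 4.91 and 4.65 TPM in the Bil_2D pair and 106 and 77.4 in the Hep_3D pair, and rose with a log2 fold change of 3.99 (adjusted p = 0.00312).

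The peroxisomal enzymes were measurable in both states. Acox2, the oxidase that begins side-chain shortening (chromosome 14, 8225511 to 8259353, minus strand), measured 22.7 and 13.4 TPM in the Bil_2D pair and 64.2 and 111 in the Hep_3D pair. The groups did not overlap, but clone 15C7 was the higher in Bil_2D and clone 19H5 in Hep_3D, so the ratio between states was 2.83 in 15C7 and 8.29 in 19H5. Acox2 rose, with a log2 fold change of 2.21 (SE 0.38, adjusted p = 0.012), or 3.00 on the size-factor scale (0.0161). The call of Acox2 was lost in 5 of the alternative settings. Among these were the fits without Bil_2D replicate 2 and without Hep_3D replicate 2 on the TPM scale.

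Amacr, the racemase that turns the side chain into the form the oxidase accepts (chromosome 15, 10981756 to 10996626, plus strand), had the smallest log2 fold change of the 9 in TPM, whereas after size factors that of Hsd3b7 was smaller. It measured 17.1 and 15 TPM in the Bil_2D pair and 21.4 and 23.4 in the Hep_3D pair, without overlap. Its log2 fold change was 0.46 (SE 0.16, adjusted p = 0.0624), and it passed on the size-factor scale (1.23, adjusted p = 0.0151), where the call was lost with any 1 library left out (0.0563 to 0.12). The ratio of Acox2 to Amacr TPM was 3 and 4.74 in the Hep_3D pair, and 1.33 and 0.89 in the Bil_2D pair.

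The conjugation pair had the largest log2 fold changes of the 9 enzymes tested on log2(TPM + 1), while by the fold of mean TPM Akr1d1 (45.3) stood above Baat (42.4). Slc27a5, the liver ligase that joins bile acids to coenzyme A (chromosome 7, 12988346 to 12998192, minus strand), measured 0.194 and 0.107 TPM in the Bil_2D pair and 157 and 202 in the Hep_3D pair. Both Bil_2D values were among the lowest of the 10 enzymes and both Hep_3D values the highest, at rank 635 and 501 of all genes. It rose, with a log2 fold change of 7.28 (SE 0.20, adjusted p = 0.00131), and 7.74 on the size-factor scale. Baat, which transfers taurine or glycine to the activated bile acid (chromosome 4, 49489422 to 49506557, minus strand), measured 1.05 and 0.262 TPM in the Bil_2D pair and 27.6 and 28 in the Hep_3D pair. The Hep_3D libraries were nearly equal while Bil_2D replicate 1 was the higher of its pair. Baat rose, with a log2 fold change of 4.16 (SE 0.29, adjusted p = 0.00433), and the fold of the mean TPM was 42.4. Slc27a5 TPM was 5.67 and 7.23 times that of Baat in Hep_3D replicates 1 and 2, and 0.185 and 0.407 times in Bil_2D.

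**Figure D3:**
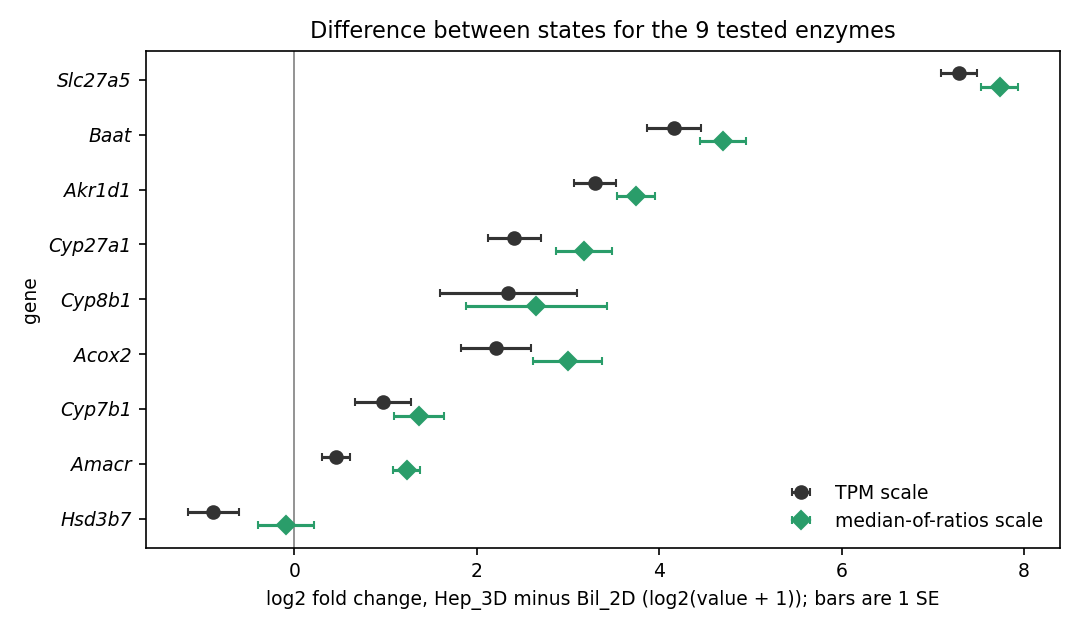
Log2 fold change, Hep_3D minus Bil_2D on log2(value + 1) (horizontal axis), of the 9 tested enzymes on the TPM scale (circles) and the size-factor scale (diamonds); bars are 1 SE from limma. Slc27a5 lies at 7.28 and 7.74, and only Hsd3b7 lies below 0 on the TPM scale, at -0.89, moving to -0.09 on the other.

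In the order of mean TPM in Hep_3D, Slc27a5 (180 ± 32.3, SD, n = 2) was followed by Acox2 (87.5 ± 32.9), Cyp27a1 (51.6 ± 9.28), Hsd3b7 (39.3 ± 13.5), Baat (27.8 ± 0.266), Amacr (22.4 ± 1.39) and Akr1d1 (11.3 ± 1.57). The libraries of Cyp27a1 and Hsd3b7 overlapped, and so did those of Cyp8b1 and Cyp7b1 below them. In Bil_2D the order was Hsd3b7 (71.9 ± 9.17), Acox2 (18 ± 6.58), Amacr (16.1 ± 1.47) and Cyp27a1 (9.05 ± 3.22), and Acox2 and Amacr overlapped. The other 6 enzymes had no Bil_2D library above 1.05 TPM. Among those, each of Baat, Cyp7b1, Akr1d1 and Slc27a5 overlapped its neighbour in this order.

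Clone 19H5 was compared with 15C7 in a limma fit that held cell state, leaving 1 residual degree of freedom. Of 9 enzymes tested 0 passed, and 0% of all genes passed. At an unadjusted p under 0.05 there were 1 of 9 enzymes and 1599 of 12336 genes. The enzyme was Cyp27a1, higher in 19H5 by 0.51 on the log2 scale (adjusted p = 0.354). Hsd3b7 was also higher in 19H5 in both states (0.48, adjusted p = 0.392). The largest difference in size was that of Cyp8b1, lower in 19H5 by a log2 value of -1.06 (adjusted p = 0.522), all of it from the Hep_3D libraries. Acox2 differed by 0.03 on average because its clone differences in the 2 states ran in opposite directions.

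In a list of 15 genes of other synthesis steps 14 were tested, 5 rose and 4 fell, where 6.8% of all genes rose and 51.9% fell. The median log2 fold change was 0.16, or 7 and 1 with a median of 0.91 on the size-factor scale. On both scales fewer rose and fewer fell without Bil_2D replicate 1, and likewise without Bil_2D replicate 2. Cyp2c70, which makes the muricholic acids of mice and has close Cyp2c paralogs, measured 1 and 0.203 TPM in the Bil_2D pair and 161 and 516 in the Hep_3D pair. Slc27a2, a very long chain acyl-CoA synthetase, measured 0.434 and 0.108 TPM in the Bil_2D pair and 110 and 137 in the Hep_3D pair. Both rose, with log2 fold changes of 7.55 (adjusted p = 0.00513) and 6.62 (0.00176), from under or near 1 TPM as Slc27a5 did. Scp2, the peroxisomal thiolase of the side chain, rose from 107 ± 27.3 to 437 ± 49.2 TPM (SD, n = 2; adjusted p = 0.00609). Hsd17b4, which acts between Acox2 and Scp2, rose by 0.55 (adjusted p = 0.0329), a call lost with any 1 library left out (0.0662 to 0.128). Abcd3, which carries bile acid precursors into peroxisomes, measured 54.5 and 44.5 TPM in the Bil_2D pair and 56.5 and 53.8 in the Hep_3D pair (adjusted p = 0.414, and 0.02 at 0.96 on the size-factor scale). Acot8, a peroxisomal thioesterase, fell by 0.97 on the TPM scale (adjusted p = 0.0101, lost without Bil_2D replicates 1 and 2 at 0.0641 and 0.0612) and its fold change was -0.19 on the size-factor scale (0.431). Ch25h and Cyp39a1, enzymes of other oxysterol branches, had log2 fold changes of -2.22 (adjusted p = 0.00639) and 1.64 (0.0246). The call of Cyp39a1 was lost without Bil_2D replicate 1 or 2. That of Ch25h was lost on the size-factor scale with any 1 library left out. Ch25h measured 3.47 and 4.71 TPM in the Bil_2D pair and 0 and 0.181 in the Hep_3D pair, and passed the filter only through Bil_2D.

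Of 6 genes of taurine supply 5 were tested, 2 rose and 2 fell, beside 6.8% and 51.9% of all genes. With any 1 library left out, fewer rose and fewer fell on both scales. The median log2 fold change was 0.60, or 1.40 on the size-factor scale. Cdo1, which begins taurine synthesis from cysteine, measured 0.559 and 0.357 TPM in the Bil_2D pair and 355 and 29 in the Hep_3D pair. Both Hep_3D values were far above Bil_2D, but they differed widely between the clones. Cdo1 rose (log2 fold change 6.15, adjusted p = 0.0167), a call lost without Bil_2D replicate 1 (0.0779) or 2 (0.0791). Csad, the decarboxylase that follows, measured 17.1 and 7.01 TPM in the Bil_2D pair and 36.6 and 20.3 in the Hep_3D pair, and passed with the replicate block (adjusted p = 0.0117) and not without it (0.0978). Slc6a6, the taurine uptake carrier, fell from 228 ± 42.2 TPM to 56.8 ± 9.12 TPM (SD, n = 2), a log2 fold change of -1.98 (adjusted p = 0.00587). On the size-factor scale the call of Slc6a6 was lost with any 1 library left out. Fmo1, a taurine-forming oxygenase, rose by 0.60 (adjusted p = 0.0498), lost with any 1 library left out (0.0539 to 0.191), with the replicate block (0.0597), without the filter (0.0722) and with either other pseudocount (0.0503 and 0.0512).

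Among 21 regulators of the pathway 18 were tested, 8 rose and 2 fell, beside 6.8% and 51.9% of all genes (median log2 fold change 0.95), or 10 and 0 on the size-factor scale (median 1.51). Fewer rose on both scales without Bil_2D replicate 2, Hep_3D replicate 1 or Hep_3D replicate 2. On the TPM scale fewer fell without Bil_2D replicate 1, Bil_2D replicate 2 or Hep_3D replicate 2. With the replicate block 10 rose and 4 fell. Nr1h4, the bile acid receptor FXR, measured 36.3 and 107 TPM in the Bil_2D pair and 16.5 and 48 in the Hep_3D pair. The groups overlapped because clone 19H5 was above 15C7 in each state. Its log2 fold change of -1.12 did not pass (adjusted p = 0.248), but passed with the replicate block on the TPM scale (0.00944) and not on the size-factor scale (-0.32, 0.117 there with the block). Nr0b2 (SHP), the repressor that FXR induces, was under 1 TPM in all 4 libraries (0.553 and 0.216 in Bil_2D, 0.289 and 0.0646 in Hep_3D) and was not tested. Fgfr4, the receptor for intestinal FGF that restrains Cyp7a1, measured 67.5 and 20.1 TPM in the Bil_2D pair and 40.1 and 13.3 in the Hep_3D pair, and passed only with the replicate block (log2 fold change -0.65, adjusted p = 0.0215), its sign turning on the size-factor scale (0.14). Klb, its co-receptor, measured 0.683 and 0.255 TPM in the Bil_2D pair and 3.06 and 1.16 in the Hep_3D pair (adjusted p = 0.0873, and 0.0313 with the replicate block), so both Hep_3D libraries were above both Bil_2D libraries. Prox1, Rxra and Ppara rose with log2 fold changes of 1.90, 2.52 and 2.64. Prox1 lost its call when Bil_2D replicate 2 (0.0774), Hep_3D replicate 1 (0.12) or Hep_3D replicate 2 (0.0722) was left out, and without the filter (0.0536). Rxra lost its call without Hep_3D replicate 1 (0.065) and Hep_3D replicate 2 (0.076).

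**Figure D4:**
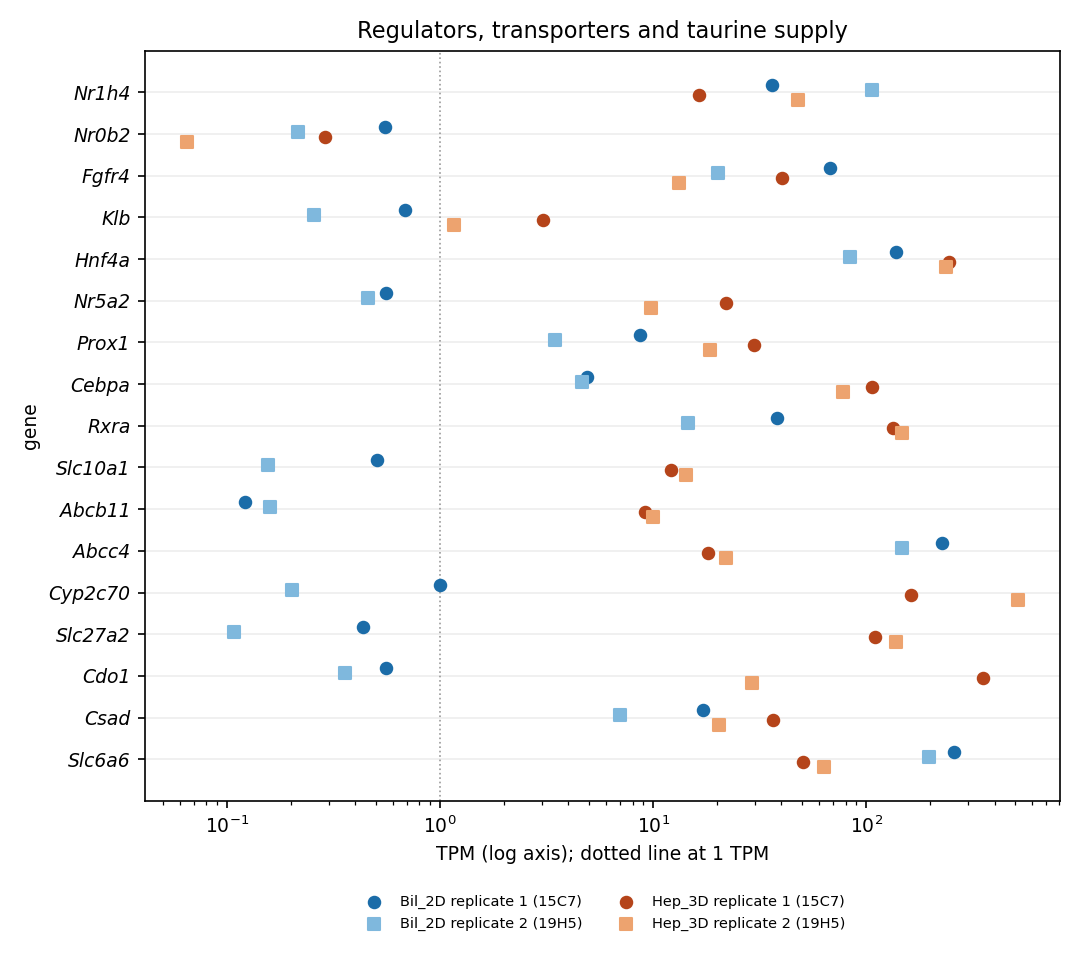
TPM (log axis) of regulators, transporters and related genes (rows) in the 4 libraries, with symbols as in the plot of the enzymes' TPM. Nr5a2, Slc10a1 and Abcb11 lie under 1 TPM in Bil_2D and near or above 9 TPM in Hep_3D, Abcc4 and Slc6a6 lie higher in Bil_2D, and Nr1h4 and Fgfr4 separate by clone.

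Of 17 transport genes 13 were tested, 8 rose and 1 fell, beside 6.8% and 51.9% of all genes. The median log2 fold change was 2.87, and on the size-factor scale 8 rose and 1 fell with a median of 3.28. Fewer rose on that scale without Bil_2D replicate 2. Slc10a1, Abcb11, Abcg5 and others that rose were under 1 TPM in both Bil_2D libraries. They passed the filter only through Hep_3D, so a fall was hardly open to them. The counts and the median carry this limit, and the shares over all genes are not matched for it. With the replicate block 2 fell. Slc10a1, the sodium-dependent bile acid uptake carrier, measured 0.506 and 0.156 TPM in the Bil_2D pair and 12.1 and 14.3 in the Hep_3D pair (log2 fold change 3.42, adjusted p = 0.00429). Abcb11, the canalicular bile salt pump, measured 0.121 and 0.159 TPM in the Bil_2D pair and 9.17 and 9.96 in the Hep_3D pair (3.21, adjusted p = 0.00364). Fabp1, a liver carrier of fatty acids and bile acids, rose by 7.01 (adjusted p = 0.00411), and Abcg5, a sterol exporter subunit, measured 0.299 and 0 TPM in the Bil_2D pair and 9.62 and 7.97 in the Hep_3D pair. Of the transport genes that did not pass, 4 had higher or overlapping Bil_2D values in TPM. Abcc2 measured 151 and 112 TPM in the Bil_2D pair and 88.1 and 89.7 in the Hep_3D pair (adjusted p = 0.0603), and Abcc3 measured 88.4 and 61.6 against 51.1 and 41.7 (0.0668, and 0.0205 with the replicate block). Both were lower in both Hep_3D libraries in TPM and not on the size-factor scale, where their fold changes were 0.27 and 0.14. The groups overlapped for Slc10a2 (2.29 to 5.46 TPM) and Slc51b (0.291 to 8.65 TPM). These 4 were named after their values were seen. Abcc4, a basolateral exporter, was the transport gene that fell, by 3.12 on the log2 scale (adjusted p = 0.00513). On the size-factor scale its call was lost with any 1 library left out.

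Of 8 genes of bile acid hydroxylation, sulfation and glucuronidation 6 were tested, 5 rose and 0 fell, beside the same 6.8% and 51.9% of all genes (median log2 fold change 2.96, and 5 and 0 with a median of 3.74 on the size-factor scale). Leaving out Bil_2D replicate 2, Hep_3D replicate 2 or the filter left 3 that rose in each case. Cyp3a11, Cyp3a25 and Cyp3a13, detoxifying hydroxylases with close paralogs and so uncertain as single genes, rose by 6.51, 5.58 and 2.92. Cyp3a11 measured 3.77 and 0.0821 TPM in the Bil_2D pair and 318 and 133 in the Hep_3D pair. Clone 15C7 was the higher in each state. The call of Cyp3a11 was lost in 3 of the alternative settings. Ugt2b5 and Ugt1a1, glucuronosyltransferases that also have close relatives, rose by 2.99 and 1.78. Ugt2b5 lost its call without Bil_2D replicate 2 (0.0537), Hep_3D replicate 1 (0.0823) and Hep_3D replicate 2 (0.133). Ugt1a1 lost its call without Bil_2D replicate 1 (0.133), Bil_2D replicate 2 (0.157) and Hep_3D replicate 2 (0.0577), and both lost it without the filter (0.0558 and 0.0804), Ugt1a1 also with pseudocount 5 (0.0539). The bile acid sulfotransferase Sult2a1 was listed at 0 in all 4 libraries, and Sult2a8 was at most 0.0401 TPM.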

How the data were processed

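RNA sequencing values of 4 libraries (Bil_2D and Hep_3D, clones 15C7 and 19H5) were used as the deposited TPM per gene. Salmon, DESeq2 and mm10 appear in the submitters' processing notes without versions or roles, and the transcript annotation and strand setting are not given in the sources used here. The table keeps no read counts, so depth and counting error are unknown and no count model was run. Genes reaching 1 TPM in 2 or more libraries (12336 of 24493) were tested on log2(TPM + 1) with limma 3.58.1 (R 4.3.3; lmFit, eBayes with a trend), with Benjamini-Hochberg adjustment over all of them and calls at adjusted p under 0.05. A gene near 0 in 1 state passed this filter only through the other state, which all but sets its direction. The counts and medians of the companion lists carry this limit too. The size-factor scale divided TPM by median-of-ratios size factors, and the log2 ratio of their group means, Bil_2D over Hep_3D, was 0.82. Positions come from GENCODE M21 (GRCm38). Sums were compared with an exact permutation test in Python 3.11.15 with scipy 1.17.1 and pandas 2.3.3.

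The clone named in the labels pairs the libraries: same-clone libraries deviated together from their group means (correlation 0.41 across genes, which are not independent replicates). The enzymes, 5 companion lists and 6 marker lists were chosen with earlier results of these data known. All 10 enzymes are named. From each companion list are named up to 5 called genes with the largest change in the same direction on both scales, and genes that stand beside an enzyme in the pathway. The fit was tested on simulated data before use. Alternatives were the size-factor scale, leaving out the 50 most abundant genes, pseudocounts 0.1 and 5, no filter, a filter of 5 TPM, a replicate block, and each library left out.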

Additional observations from a re-analysis of the deposited data

How the results depend on the processing

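The number of enzymes that rose was 5, and 2 to 6 with a library left out, the lowest without Bil_2D replicate 2 on the size-factor scale (3 there without Bil_2D replicate 1). The number that fell was 0, and 1 (Hsd3b7) with pseudocount 5, with the filter of 5 TPM and with the replicate block, and 0 to 1 with a library left out (1 without Hep_3D replicate 2). Of companion genes 28 rose and 9 fell. With a library left out 17 (without Bil_2D replicate 2) to 23 rose and 5 to 7 fell, and with size factors 15 rose without Bil_2D replicate 1, 7 without the other Bil_2D library, 18 without Hep_3D replicate 1 and 17 without the other Hep_3D library, while 0 fell in each. The number that fell was 3 on the size-factor scale, 4 there with the replicate block, and 5 without the 50 most abundant genes. The summed ratio of 3.66 was 6.47 on the size-factor scale and 5.39 without those genes. The cause of these shifts was not tested.

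Over all genes 839 rose and 6402 fell, against 1465 and 1177 on the size-factor scale, 1133 and 2234 without the 50 most abundant genes, and 1744 and 1449 with the replicate block on the size-factor scale. With a library left out 168 to 595 rose and 20 to 3950 fell. The sign turned for Hsd3b7 on the size-factor scale without Bil_2D replicate 2 (0.077) or Hep_3D replicate 1 (0.29), and for Nr1h4 there (0.48 and 0.46). It turned for Fgfr4 on the size-factor scale (0.14, with or without the replicate block), without Bil_2D replicate 1 (0.20, or 0.94 on that scale) and without Hep_3D replicate 2 (0.11, or 0.88), within a range of -1.50 to 0.94 with a library left out. Among the 10 enzymes and the companion and marker genes named in the text, the replicate block changed a call on the TPM scale for Cyp8b1, Hsd3b7, Csad, Fmo1, Nr1h4, Fgfr4, Klb, Abcc3, Spp1 and Dcn, and no other call. With 2 libraries a group and unknown depth, values under 1 TPM carry no stated precision.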
